A study of Bubalus bubalis with 12 samples.

Results

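The 10 genes described here have parts in the passage of calcium and magnesium through an absorbing epithelium or in its control. They were chosen by name: the channels TRPV3, TRPV4, TRPV6, TRPM6 and TRPM7, the calcium pumps ATP2B1 and ATP2B4, the sodium-calcium exchanger SLC8A1, the calcium-binding protein S100G and the vitamin D receptor VDR. In the table their gene identifiers are 102404840 for TRPV3, 102411693 for TRPV4, 102398336 for TRPV6, 102408750 for TRPM6, 102396769 for TRPM7, 102394074 for ATP2B1, 102395917 for ATP2B4, 102396230 for SLC8A1, 102414223 for S100G and 102405633 for VDR. All 10 have a row among the 34037 genes of the table, and 8 of them were among the 12642 genes with enough reads to be tested. The samples were pieces of ruminal wall from 12 adult, multiparous Italian Mediterranean dairy buffaloes, taken at slaughter, with 1 total RNA library per animal. The control group of 6 animals ate a total mixed ration (TMR), and the treated group of 6 animals ate the TMR with green ryegrass as about 30% of the diet, the other constituents being adjusted so that both diets held like amounts of energy and nitrogen. No genetic change or drug was involved. By the study's account, added calcium carbonate and vitamins were in the control ration alone, and the treated ration held a larger share of forage. These differences cannot be told apart from the green feed itself. For calcium in the finished rations, the study lists near-equal contents, slightly higher in the treated ration. The comparison between the groups asks whether expression in the ruminal wall differed with the whole ration.

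An absorbing epithelium moves calcium in steps: channels let it in from the lumen, binding proteins carry it through the cytosol, and pumps and exchangers push it out towards the blood. In the small intestine of monogastric animals, TRPV6 is the entry channel, S100G (calbindin-D9k) the carrier, and the vitamin D receptor the factor that raises both. The rumen is a main site of magnesium uptake in ruminants and also absorbs calcium and ammonium, and TRPV3, TRPV4, TRPM6 and TRPM7 are channels of its epithelium that let such ions through.

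The libraries held between 10531541 and 12948372 counted fragments, as worked out from the steps of the deposited values. Values are FPKM, that is fragment numbers divided by gene length and by the library's total of counted fragments, so levels of different genes can be set side by side within an animal. The label of ruminal wall was checked against marker genes. The 12 epithelial markers in the table were present in all animals, with KRT5, a keratin of basal squamous cells, between 451 and 2372 FPKM, whereas MYH11, the myosin of smooth muscle, lay between 0.712 and 4.5 FPKM. Control replicate 6 and treated replicate 6 had the lowest KRT5 levels, and results that change without both are given with that value. The summed level of the smooth muscle markers ran from 29.7 to 51.6 FPKM in the control animals, with a median of 37.8, and from 16.9 to 42.3 FPKM in the treated animals, with a median of 25.5. That of the fibroblast markers ran from 43.5 to 281 FPKM in the control animals, with a median of 105, and from 19.1 to 170 FPKM in the treated animals, with a median of 93.5. Neither sum passed the two-sided exact permutation test between the diets (p = 0.0649 and p = 0.327). All 7 tested smooth muscle markers and all 7 fibroblast markers had a log2 fold change below 0, with 1 of them (DES) having an unadjusted limma p-value below 0.05. In a piece of tissue, fewer cells of a type and less RNA per cell cannot be told apart.

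The 10 genes spanned a wide range of levels, from the plasma membrane calcium pump ATP2B1 at 27.1 to 36.7 FPKM down to S100G, listed at 0 in nearly all animals. Averaged on the log scale over the 12 animals, the order was ATP2B1, TRPM7, TRPV3, TRPM6, TRPV4, ATP2B4, VDR and SLC8A1, with TRPV6 and S100G below. Among all genes tested, the mean level of ATP2B1 stood at percentile 84.9, TRPM7 at 70.3 and TRPV3 at 63.8, while VDR and SLC8A1 stood at 4.5 and 3.4. Of the 7 pairs of neighbours in this order, 4 had a mean log2 difference within animals with an exact p-value below 0.05. The tests were two-sided exact sign-flip tests over 12 animals, which can reach no p-value below 0.000488. ATP2B1 was above TRPM7 in 12 of 12 animals, by 1.96-fold (exact p = 0.000488). TRPM7 was above TRPV3 in 9 of 12 animals, by 1.35-fold (exact p = 0.0205). This log2 difference, 0.44, was smaller than its SD over the animals, 0.58. TRPV3 was above TRPM6 in 11 of 12 animals, by 1.94-fold (exact p = 0.000977). ATP2B4 was above VDR in 12 of 12 animals, by 6.38-fold (exact p = 0.000488). The remaining neighbours could not be ordered: TRPM6 was above TRPV4 in 8 of 12 animals (exact p = 0.151), TRPV4 above ATP2B4 in 10 of 12 (exact p = 0.0605) and VDR above SLC8A1 in 7 of 12 (exact p = 0.542). The order was taken from the same values, so the pairs and the direction of each were not set in advance. These tests were not adjusted for the number of pairs, and the length of each gene to which reads can be mapped is not known.

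**Figure D1:**
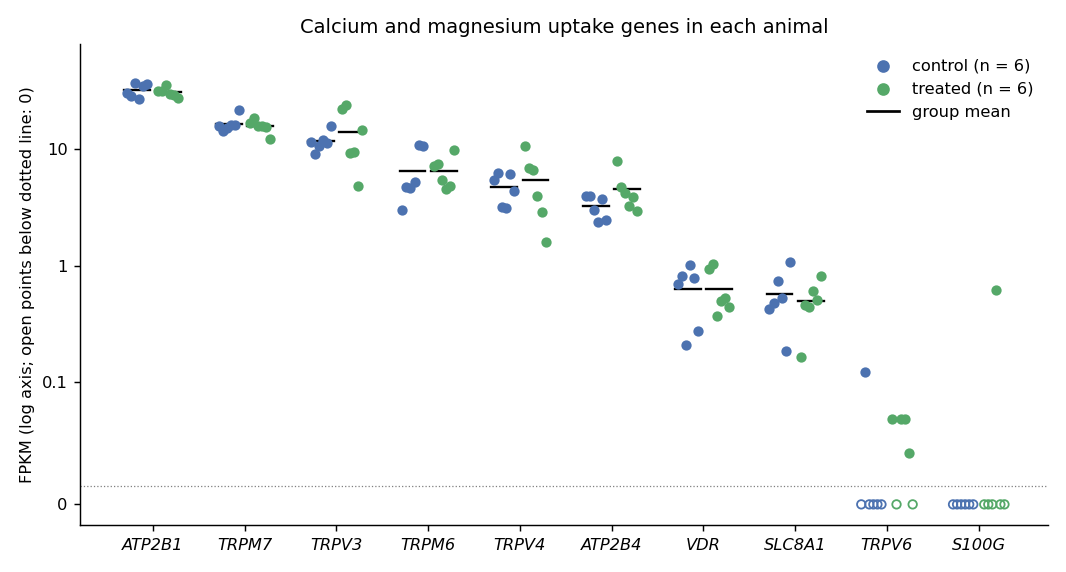
Level of the 10 genes in each of the 12 animals, in FPKM on a log axis, with genes ordered by their mean level; filled points are animals above 0, open points under the dotted line are animals at 0, and bars are group means (n = 6 each). The points of both groups overlap in every gene, ATP2B1 lies between 27.1 and 36.7 FPKM in all animals, and TRPV6 and S100G are at 0 in many.

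Among the TRPV channels, TRPV3, which opens to warmth and to plant terpenoids and carries calcium and ammonium in the rumen, was the one with the highest level. Its FPKM in the control animals ran from 9.16 over a median of 11.4 to 15.8, and in the treated animals from 4.81 over a median of 12 to 24. The treated animals were thus spread on both sides of the control animals, with 2 above the highest control (22 and 24 FPKM in treated replicates 1 and 2) and 1 below the lowest (treated replicate 5). The group means of 11.7 ± 2.24 FPKM in control and 14 ± 7.63 FPKM in treated animals (SD, n = 6 per group) gave a log2 fold change, on the log2(FPKM + 0.01) scale used for all fold changes here, of 0.08 with a standard error (SE) of 0.33 (limma adjusted p = 0.9997, two-sided exact permutation p = 0.853).

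TRPV4, a channel that responds to cell swelling and mechanical strain, was lower and just as variable. In control animals it ran from 3.15 over a median of 4.89 to 6.28 FPKM, and in treated animals from 1.60 over 5.27 to 10.6 FPKM. Here 3 treated animals lay above all controls and 2 lay below all controls. The log2 fold change was -0.01 (SE 0.39, limma adjusted p = 0.9997, two-sided exact permutation p = 0.991), with group means of 4.75 ± 1.4 and 5.43 ± 3.28 FPKM (SD, n = 6 each). Over all 12 animals, TRPV4 differed 6.64-fold between the lowest and the highest animal and TRPV3 differed 4.98-fold.

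TRPV6, the vitamin D dependent calcium channel of the intestine and placenta, was represented by 12 reads in all 12 libraries together. Control replicate 2 held 5 reads, at 0.122 FPKM, and the other control animals held 0. In the treated group 4 animals held 1 or 2 reads each, between 0.0246 and 0.0487 FPKM, and the remaining animals held 0. A count of 0 allows up to 3 reads, which for TRPV6 is 0.0675 to 0.083 FPKM depending on the library, so that only control replicate 2 stood above this limit. Such limits cover counting error only. The exact permutation test over the animals gave p = 0.242, and no fold change is given since both groups lie near or under the limit.

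The magnesium channels TRPM6 and TRPM7 are fusions of a TRP channel with a protein kinase. TRPM7 is present in most cells, whereas TRPM6 is known from epithelia that take up magnesium, where both can join in 1 channel. TRPM6 had a level of 3.03 to 10.8 FPKM with a median of 5.01 in the control animals and of 4.54 to 9.84 FPKM with a median of 6.32 in the treated animals. The highest values were those of control replicates 5 and 6 (10.8 and 10.6 FPKM) and treated replicate 6 (9.84 FPKM), and the treated values all lay within the control range. The group means of 6.52 ± 3.33 and 6.57 ± 2.01 FPKM (SD, n = 6 each) corresponded to a log2 fold change of 0.11 (SE 0.31, limma adjusted p = 0.9997, two-sided exact permutation p = 0.747).

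TRPM7 was more abundant and more even, with an SD within groups of 0.20 on the log2 scale where TRPM6 had 0.60. It ran from 14.4 over a median of 15.9 to 21.6 FPKM in control animals and from 12.2 over 15.8 to 18.6 FPKM in treated animals. The ends of this range were the animals with the lowest KRT5 levels: control replicate 6 was the highest of all and treated replicate 6 the lowest of all. KRT5 is a single marker. In the score of 12 epithelial markers described below, treated replicate 6, at -0.24, stood above control replicate 3 (-0.39) and treated replicate 5 (-0.38). The log2 fold change was -0.07 (SE 0.13, limma adjusted p = 0.9997, two-sided exact permutation p = 0.6), and 0.09 (SE 0.08) without both animals. The ratio of TRPM6 to TRPM7 within an animal, which does not depend on the scaling of the library, ran from 0.191 to 0.676 around a median of 0.329 in control animals, and from 0.289 to 0.807 around 0.374 in treated animals (difference of 0.18 on the log2 scale, two-sided exact permutation p = 0.621).

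S100G, the calcium carrier of the intestinal cell, was listed at 0 in all 6 control animals and in 5 of 6 treated animals. Treated replicate 4 had 0.621 FPKM. With 1 animal above 0, the reads behind this value could be worked out only up to a common factor, and they were 2 at the shortest gene length that gives whole reads. At that length 3 reads, the limit that a count of 0 allows, amount to 0.868 to 1.07 FPKM, and the value lies below this limit (two-sided exact permutation p = 1.0). No difference between the diets was detectable at this depth. The larger calcium-binding protein calbindin-D28k, CALB1, was likewise near 0, with at most 8 reads in an animal.

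On the side of extrusion, ATP2B1, the plasma membrane calcium pump found in nearly all cells, had the highest level of the 10 genes. It ran from 27.1 to 36.7 FPKM in the control animals, with a median of 32.5, and from 27.4 to 35.4 FPKM in the treated animals, with a median of 30.7. The groups lay on top of each other, and the highest animal exceeded the lowest 1.35-fold. With means of 32.4 ± 4.12 and 30.8 ± 2.82 FPKM (SD, n = 6 each), its log2 fold change was -0.06 (SE 0.11, limma adjusted p = 0.9997, two-sided exact permutation p = 0.494).

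ATP2B4, a second pump of the same family and known for its part in muscle and endothelium, showed the largest group difference of the 8 tested genes, and it did not pass the test. In the control animals it ran from 2.36 over a median of 3.38 to 3.94 FPKM, and in the treated animals from 2.96 over 4.08 to 7.94 FPKM. Of the treated animals 3 lay above all controls (7.94, 4.79 and 4.24 FPKM in treated replicates 1, 2 and 3), and the other 3 lay within the control range. With n = 6 in each group, the means were 3.25 ± 0.734 (SD) in control and 4.52 ± 1.8 FPKM in treated animals, which is a log2 fold change of 0.43 (SE 0.24, limma p = 0.0924 before and 0.9997 after adjustment, two-sided exact permutation p = 0.106). The 95% confidence interval of the fold reached from 0.946 to 1.92. ATP2B4 stands in the study's own list of changed genes from these animals, so its direction here is not independent evidence.

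The log2 fold change of ATP2B4 stayed above 0 with each animal left out, from 0.25 to 0.54. Its size varied with the animals and marker scores used, and the cause of this was not tested. Without treated replicate 1, the animal with the highest ATP2B4 and the lowest score of smooth muscle and fibroblast markers, the log2 fold change was 0.25 (SE 0.20). Without treated replicate 6 it was 0.54 (SE 0.23), with an unadjusted limma p-value below 0.05. With the score of the smooth muscle and fibroblast markers in the model it was 0.16 (SE 0.20), and with that of the epithelial markers 0.27 (SE 0.18), each with an unadjusted limma p-value above 0.05. Set against ATP2B1 in the same animal, ATP2B4 stood at a ratio of 0.0679 to 0.136 in control animals, around a median of 0.0979, and of 0.108 to 0.249 in treated animals, around 0.128. This ratio differed by 0.49 on the log2 scale (two-sided exact permutation p = 0.0671), and the exact p fell below the threshold of 0.05 without control replicate 1 (p = 0.0433) or control replicate 2 (p = 0.039).

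SLC8A1, the sodium-calcium exchanger best known from heart muscle and other contractile cells, was low. It ran from 0.185 over a median of 0.501 to 1.08 FPKM in control animals and from 0.166 over 0.487 to 0.813 FPKM in treated animals. Between 14 and 80 reads stood behind these values, and they varied 6.49-fold over the animals. The log2 fold change was -0.14 (SE 0.45, limma adjusted p = 0.9997, two-sided exact permutation p = 0.751), and without control replicate 6 or treated replicate 1 it changed sign, to 0.08 and 0.14.

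VDR, the nuclear receptor through which calcitriol acts on the calcium genes of the intestine, was as low as SLC8A1. In control animals it ran from 0.209 over a median of 0.745 to 1.01 FPKM and in treated animals from 0.375 over 0.518 to 1.03 FPKM, with 12 to 57 reads per animal. Treated replicates 1 and 2 were the only treated animals above the control median. The log2 fold change was 0.11 (SE 0.43, limma adjusted p = 0.9997, two-sided exact permutation p = 0.803), with a higher median in the control group and near-equal means of 0.633 ± 0.32 and 0.637 ± 0.276 FPKM (SD, n = 6 each).

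Taking the diet comparison over the genes, 0 of the 8 tested had an unadjusted limma p-value below 0.05, against 1.24% of the 12642 genes tested, and 0 had an adjusted p-value below 0.05, against 0.0% of all genes (0 genes, where 157 had an unadjusted limma p-value below 0.05 and 219 an unadjusted exact permutation p-value below 0.05). Exact permutation of the animals likewise put 0 of the 8 tested genes below p = 0.05, against 1.73% of all those tested. The groups were without overlap in 0 of the 10 genes, against 0.0554% of the genes tested. The log2 fold change was above 0 in 4 of the 8 genes and below 0 in 4, with a median of 0.03, and the median over all genes tested was 0.0053. What the data can limit differs strongly between the genes. The 95% confidence interval of the fold was narrow for ATP2B1, from 0.814 to 1.12, and for TRPM7, from 0.79 to 1.16. It was wide for TRPV4, from 0.557 to 1.78, for SLC8A1, from 0.465 to 1.77, and for VDR, from 0.57 to 2.05. Intervals for TRPV3 (0.647 to 1.72) and TRPM6 (0.682 to 1.71) lay between these.

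**Figure D2:**
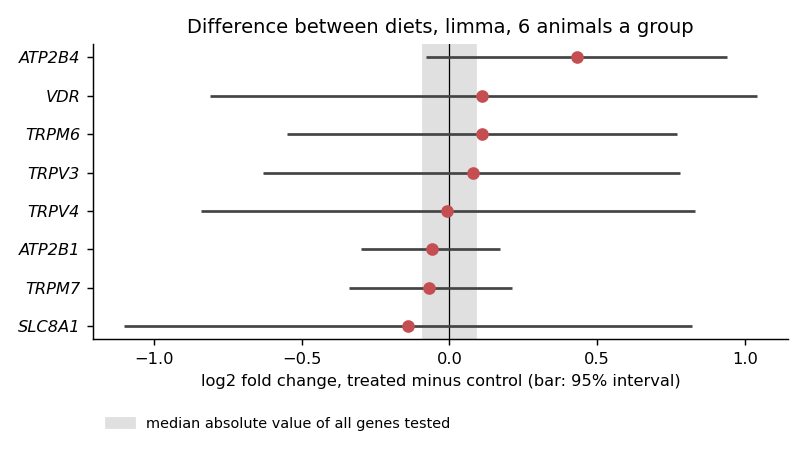
Log2 fold change of the 8 tested genes, treated minus control, on the log2(FPKM + 0.01) scale, with 95% confidence intervals from limma (n = 6 animals per group); the grey band marks the median absolute log2 fold change of all genes tested, 0.09. All intervals include 0; the point farthest from 0 is ATP2B4 at 0.43, and the narrowest interval is that of ATP2B1.

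Most of these genes varied more between animals of the same diet than the typical gene. The SD within groups, on the log2 scale, had a median of 0.62 over the 8 tested genes and of 0.36 over all genes tested. It was 0.80 for SLC8A1, 0.77 for both TRPV4 and VDR, and 0.64 for TRPV3, which stood at percentiles 91.0, 89.9, 90.0 and 83.7 of all genes. VDR and SLC8A1 rest on 12 to 80 reads per animal. At the other end, TRPM7 with 0.20 and ATP2B1 with 0.16 stood at percentiles 14.7 and 6.2.

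To see which genes varied with the makeup of the tissue piece, the levels were set against a score of 12 epithelial markers and a score of 14 smooth muscle and fibroblast markers, each the mean of the standardised log2 levels. No member of the 10 is in either score. The epithelial score ran from -0.58 to 0.36 in control and from -0.38 to 0.91 in treated animals (two-sided exact permutation p = 0.45), and the muscle and fibroblast score from -0.34 to 1.07 and from -1.59 to 0.77 (exact permutation p = 0.169). Both come from the same libraries as the genes, and they ran against each other over the 12 animals (r = -0.78, permutation p = 0.00262). Of the 8 genes, 4 had an absolute correlation of at least 0.7 with the epithelial score, against 5.39% of all genes tested, and 3 with the muscle and fibroblast score, against 4.41%. After adjustment over all 12642 genes, 0 of the 16 relations passed 0.05, where 0.0% of all genes did so for the epithelial and 0.87% for the muscle and fibroblast score.

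SLC8A1 was negatively correlated with the epithelial score (r = -0.85, permutation p = 0.00024, adjusted p = 0.103; Spearman's rho = -0.80, permutation p = 0.00235). The direction was the same within the control group (r = -0.93) and within the treated group (r = -0.83), and r was -0.65 without the 2 animals farthest from the median score. With the muscle and fibroblast score SLC8A1 ran the other way (r = 0.70, permutation p = 0.0116, adjusted p = 0.255, and rho = 0.70, permutation p = 0.0145). Without treated replicate 1 and control replicate 3, the 2 animals farthest from the median of that score, r was 0.46 (permutation p = 0.175). The relation did not pass the threshold without them.

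TRPV4, VDR and ATP2B4 ran the opposite way to SLC8A1. TRPV4 had r = 0.72 with the epithelial score (permutation p = 0.00857, adjusted p = 0.204; rho = 0.73, permutation p = 0.00945), and r = 0.70 without the 2 farthest animals. VDR had r = 0.71 (permutation p = 0.00832, adjusted p = 0.203; rho = 0.71, permutation p = 0.0113), and r = 0.66 without the 2 farthest animals. Without both animals of lowest KRT5 level, r for VDR was 0.62 and did not pass the threshold (permutation p = 0.0574). Both had a like r within each diet, 0.70 and 0.78 for TRPV4 and 0.76 and 0.76 for VDR in control and treated animals. For TRPV4 the relation depended on how the score was made, since r was 0.39 with the logarithm of the summed marker FPKM in place of the mean of standardised levels.

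ATP2B4 had r = 0.80 with the epithelial score (permutation p = 0.00281, adjusted p = 0.158; rho = 0.67, permutation p = 0.0204). Without treated replicate 1 and control replicate 6, the 2 animals farthest from the median of this score, r was 0.44 (permutation p = 0.199). The relation did not pass the threshold without them. With the muscle and fibroblast score ATP2B4 had r = -0.79 (permutation p = 0.00257, adjusted p = 0.15, and rho = -0.68, permutation p = 0.0186). Without the 2 animals farthest on that score, treated replicate 1 and control replicate 3, r was -0.58 (permutation p = 0.0772). For VDR the same score gave r = -0.71 (permutation p = 0.0101, adjusted p = 0.252, and rho = -0.69, permutation p = 0.0157). For TRPV4 it gave r = -0.62 (permutation p = 0.0325, adjusted p = 0.346, and rho = -0.69, permutation p = 0.0157). Without the same 2 animals r fell to -0.58 for VDR and -0.38 for TRPV4 (permutation p = 0.0809 and 0.282).

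The other 4 genes showed no such relation past the threshold. TRPM6 (r = 0.08), TRPM7 (r = -0.02) and ATP2B1 (r = -0.10) had correlations with the epithelial score near 0, with permutation p-values of 0.808, 0.96 and 0.757. Within the diets the directions were opposite for TRPM7, with r = -0.64 in control and r = 0.54 in treated animals, and for ATP2B1, with r = -0.40 and r = 0.32. TRPV3 had r = 0.45 (permutation p = 0.138; rho = 0.19), with r = -0.66 in the control and r = 0.74 in the treated animals. These differences between the diets were not tested. Without control replicate 6 and treated replicate 6, the animals with the lowest KRT5 levels, r for TRPV3 was 0.71 (permutation p = 0.0268).

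**Figure D3:**
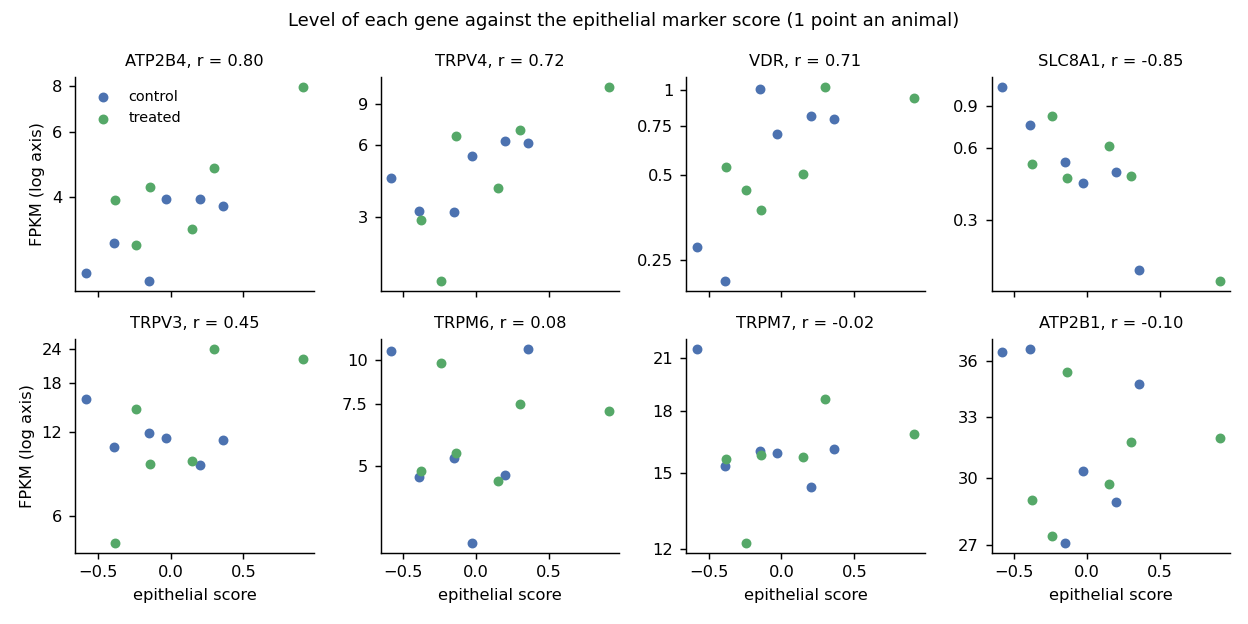
Level of each of the 8 tested genes, in FPKM on a log axis, against the epithelial marker score (mean of standardised log2 levels of 12 markers), with 1 point for each of 6 control and 6 treated animals and Pearson's r over the 12. ATP2B4, TRPV4 and VDR run upwards with the score and SLC8A1 downwards, while TRPM6, TRPM7 and ATP2B1 have r between -0.10 and 0.08; treated replicate 1, at a score of 0.91, stands apart at the right.

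Between the genes themselves, 28 pairs were compared, of which 17 had a positive r, with a median r of 0.12. An absolute r of at least 0.7 was found in 2 of the 28, against 7.55% of all pairs of genes tested, a share near that of these genes. The p-values that follow are not adjusted for the number of pairs. ATP2B4 was correlated positively with TRPV4 (r = 0.73, permutation p = 0.00768; rho = 0.80, permutation p = 0.00272) and negatively with SLC8A1 (r = -0.75, permutation p = 0.00482; rho = -0.80, permutation p = 0.00292). Here the 2 animals farthest from the median level of 1 gene were left out, TRPV4 for the first pair and ATP2B4 for the second. Without them r was 0.65 and -0.68. TRPV4 and SLC8A1 had r = -0.69 (permutation p = 0.0145, and rho = -0.72, permutation p = 0.0106), falling to -0.48 without the 2 animals farthest from the median of TRPV4. SLC8A1 and VDR had r = -0.65 (permutation p = 0.0226, and rho = -0.57, permutation p = 0.0593). Genes that are paired by their known function were not closely tied over the animals: TRPM6 and TRPM7 had r = 0.22 (permutation p = 0.493), the pumps ATP2B1 and ATP2B4 r = 0.08, and TRPV3 and TRPV4 r = 0.37 (permutation p = 0.239). TRPV3 and TRPM7 had a rank correlation above their r (rho = 0.64, permutation p = 0.0275; r = 0.36, permutation p = 0.245).

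**Figure D4:**
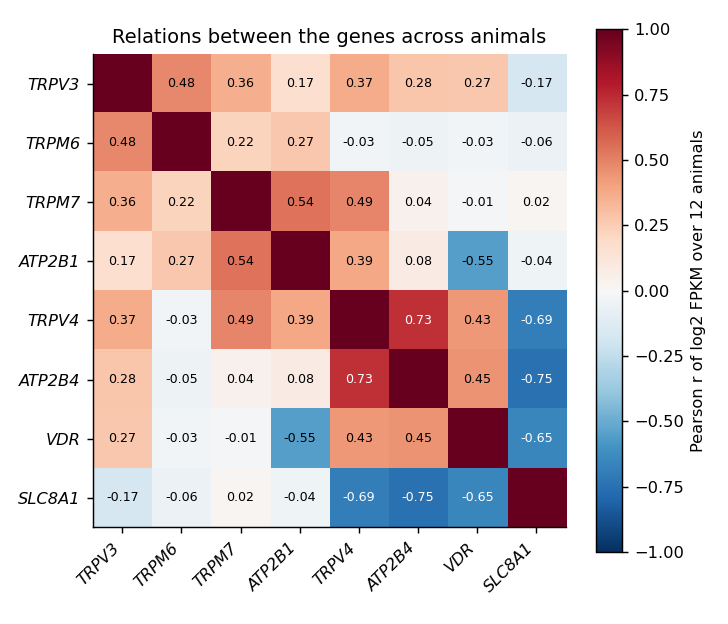
Pearson's r over 12 animals between the log2 levels of the 8 tested genes, with colour and printed value giving r from -1 to 1. ATP2B4 and TRPV4 are positively correlated (0.73), SLC8A1 is negatively correlated with ATP2B4 (-0.75), TRPV4 (-0.69) and VDR (-0.65), and TRPM6 with TRPM7 has 0.22.

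For each gene the other named genes with the most similar pattern over the 12 animals, after centring on the mean of each diet, were also looked up among all genes tested. As the highest among all genes tested they are given as a description. Nearest to TRPV3 were KIF13B, a kinesin motor (r = 0.96, rho = 0.92), and CD14, a receptor for bacterial lipopolysaccharide (r = 0.95, rho = 0.80). Nearest to TRPV4 were the DNA damage protein MDC1 (r = 0.97, rho = 0.96) and DSP, the desmoplakin of epithelial cell junctions (r = 0.97, rho = 0.94), which itself stood at 525 ± 137 FPKM (SD, n = 6) in the control and 582 ± 254 FPKM (SD, n = 6) in the treated group.

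TRPM6 was most like PLS3, an actin-bundling plastin (r = 0.93, rho = 0.87), and CLINT1, an adaptor of clathrin vesicles (r = 0.91, rho = 0.94), while TRPM7 was most like ZNF800 (r = 0.96, rho = 0.85) and DNAJC13 (r = 0.93, rho = 0.80). ATP2B1 had TRIM6 (r = 0.91, rho = 0.83) and DLD, a subunit of mitochondrial dehydrogenases (r = 0.86, rho = 0.90). ATP2B4 had SNX27, a sorting protein of endosomes (r = 0.92, rho = 0.89), and PITPNM3 (r = 0.91, rho = 0.96). SLC8A1 had FASTKD5 (r = 0.98, rho = 0.88) and ST6GAL2 (r = 0.96, rho = 0.87), and VDR had CHMP4B (r = 0.88, rho = 0.81) and JPH1 (r = 0.87, rho = 0.91). No gene was named for more than 1 of the 8.

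The wider machinery of calcium and magnesium was described by 5 lists of 98 further genes, of which 93 are in the table and 53 were tested. Of these 53 genes, 1 was lower and 0 were higher in treated animals at an unadjusted limma p-value below 0.05, against 0.451% and 0.791% of all genes tested, and the median log2 fold change was 0.01. The counts and medians of the lists include genes near the read minimum, among them CACNG4 and LRP2, which reached it in 1 group alone. Others with few reads were SLC24A3 and ATP2C2, with at most 72 and 42 reads in an animal. The 1 gene was MAGT1, a subunit of the oligosaccharyltransferase that is also described as a magnesium transporter. Its means of 51.3 ± 7.46 (SD, n = 6) in control and 42.9 ± 4.56 FPKM (SD, n = 6) in treated animals gave a log2 fold change of -0.25 (SE 0.11, limma p = 0.041 before and 0.9997 after adjustment, two-sided exact permutation p = 0.0281).

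In the list for magnesium transport, 14 genes were tested, with 4 having a log2 fold change above 0 and 10 below, and a median of -0.10. Beside MAGT1, the genes with the highest levels were members of the NIPA family of magnesium transporters. NIPAL2, with 50 ± 4.72 FPKM in control and 44.9 ± 3.68 FPKM in treated animals (SD, n = 6 per group), had a log2 fold change of -0.16 (SE 0.10, two-sided exact permutation p = 0.0779). NIPA2 had means of 20.8 and 20.4 FPKM and NIPAL1 of 16.8 and 16.2 FPKM. The group means of MAGT1, NIPAL2 and NIPA2 were above those of TRPM7. NIPAL1, which ran from 7.07 to 32.7 FPKM over the animals, had means near those of TRPM7. These levels were not compared within animals.

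Of 21 further calcium channel genes 12 were tested, with 6 on each side of 0 and a median of 0.01. Those with the highest levels belong to store-operated entry, in which STIM sensors of the endoplasmic reticulum open ORAI channels: ORAI1 had means of 6.2 and 6.4 FPKM in control and treated animals, STIM2 of 4.30 and 4.71, ORAI3 of 2.65 and 2.78, and STIM1 of 2.43 and 2.49. TRPV5, the renal relative of TRPV6, was at 0 in all 12 animals, and TRPV1 had at most 2 reads in an animal. CACNG4, a subunit of voltage-gated channels, was chosen after its values were seen, since the study's list of unadjusted calls in these animals holds it. It had 0.419 ± 0.131 in control and 0.916 ± 0.708 FPKM in treated animals (SD, n = 6 per group). It reached the read minimum in treated animals alone, so no test is given.

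Among 30 genes for calcium binding, extrusion and stores, 18 were tested, of which 12 had a log2 fold change above 0 and 6 below, with a median of 0.08. CALM2, a calmodulin gene, was the most abundant. Calmodulins are calcium sensors of all cells, and CALM2 had means of 328 and 350 FPKM in control and treated animals. S100A10, a partner of annexin that helps to bring TRPV5 and TRPV6 to the membrane, had 134 and 144 FPKM, and SMDT1, a subunit of the mitochondrial calcium uniporter, 50.6 and 54.9 FPKM.

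The other TRPM and TRPML channels gave 3 tested genes of 9, with 2 above and 1 below 0. MCOLN1, a channel of lysosomes, had means of 10.8 and 10.4 FPKM, and TRPM4, which carries sodium when calcium rises, had 8.41 ± 2.97 FPKM in control and 10 ± 5.13 FPKM in treated animals (SD, n = 6 per group), a log2 fold change of 0.16 (SE 0.35, two-sided exact permutation p = 0.69). MCOLN2 had 0.739 and 0.794 FPKM, and TRPM2 had 0.209 FPKM in both groups and was not tested.

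For vitamin D and calcium sensing, 6 of 16 genes were tested, with 4 above and 2 below 0 and a median of 0.00. The partners of VDR were well above VDR itself: the receptors RXRA and RXRB, with which it binds DNA, had means of 20.1 and 20.9 FPKM and of 12.8 and 13.4 FPKM in control and treated animals, and the coactivators SNW1 and MED1 had 28.6 and 28.9 FPKM and 14.2 and 14.2 FPKM. The calcium-sensing receptor CASR was at 0 in all 12 animals. LRP2, a receptor for vitamin D binding protein in the kidney and also in the study's list, was named after its values were seen and had means of 0.123 ± 0.129 and 0.0135 ± 0.021 FPKM (SD, n = 6 per group). It reached the read minimum in control animals alone, so no test is given.

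**Figure D5:**
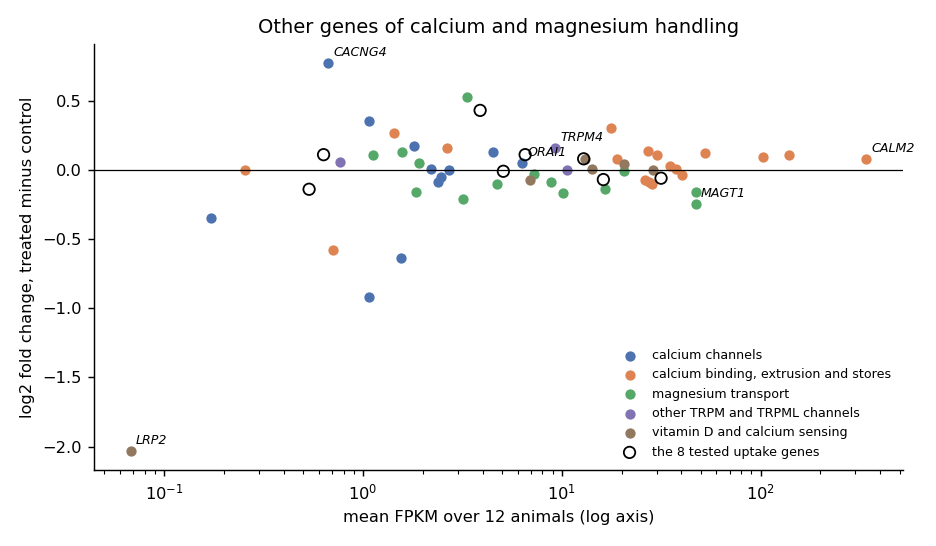
Log2 fold change, treated minus control, on the log2(FPKM + 0.01) scale, of the tested genes of the 5 lists against their mean level over 12 animals in FPKM (log axis), coloured by list, with the 8 tested uptake genes as open circles. Of the 53 tested genes 52 have an unadjusted limma p-value of 0.05 or more, and MAGT1 at -0.25 is the 1 listed gene below 0.05. LRP2 and CACNG4, farther from 0, have low levels. Each of them reached the read minimum in 1 group alone, so their points are no evidence of a difference.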

How the data were processed

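Ruminal wall of 12 buffaloes was analysed, 6 control and 6 treated, grouped by the description label of each sample. Per the submitters' processing notes and the study's methods, stranded total RNA reads were checked with FastQC 0.11.5, trimmed with Trimmomatic 0.39, aligned with STAR 2.5.2b to the UOA_WB_1 genome and counted per gene and strand with featureCounts 2.0.0. The authors deposited FPKM values; the gene lengths and the tool behind them are not given in the sources used here. The counted fragments were worked out from the steps of the FPKM values and set the precision. Another 4 columns of the table match no sample and were not used. No sequences or coordinates are given.

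Genes reaching about 42 normalised reads in at least 1 animal, the study's own filter, were tested with limma 3.58.1 in R 4.3.3 (lmFit, eBayes with trend) on log2(FPKM + 0.01), and p-values were adjusted by Benjamini-Hochberg across the 12642 genes. The authors used a count model; since FPKM were deposited, the log scale was the main test here, and voom on the reads recovered from them an alternative. Single values were tested by two-sided exact permutation over all 924 assignments of the animals (which can reach no p-value below 0.00216), and correlations by 100000 permutations. Tables and figures used Python 3.11.15, numpy 2.4.6, scipy 1.17.1, pandas 2.3.3 and matplotlib 3.10.9. The limma steps were tested on simulated data.

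The members and lists were chosen with earlier results of these data known. The genes named are the 10 members, all listed genes with an unadjusted limma p-value below 0.05, up to 4 further genes a list with the highest mean FPKM, and for each tested member the 2 genes with a symbol other than a LOC number and the highest correlation; other named genes were chosen after their values were seen. One gene that this rule names is not reported here. Marker lists covered epithelium, smooth muscle, fibroblasts, endothelium, immune cells, and enteric glia, neurons and pacemaker cells; of the last 3, summed levels ran from 5.88 to 31.9, from 15.2 to 37.7 and from 3.14 to 18.3 FPKM over the animals, with exact permutation p-values between the groups of 0.877, 0.682 and 0.232. Markers with a mean of at least 1 FPKM entered the scores.

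Alternatives were pseudocounts of 0.1 and 1, other filters on low values, scaling by TMM or by the median ratio, robust eBayes, voom on the recovered reads, the replicate number as a block, the muscle and fibroblast score as a covariate, other forms of the scores and each animal left out in turn. Chosen after seeing the data were the epithelial score as a covariate, smooth muscle or fibroblast genes alone in the score, and the fit without both animals of lowest KRT5 level.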

Additional observations from a re-analysis of the deposited data

Results flagged for a closer look

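Of 22 groups of 6 values examined, 1 held a sample far from the others. In the control group, TRPM7 stood at 21.6 FPKM in control replicate 6, while the other 5 animals lay between 14.4 and 16.1 FPKM. On the log2 scale, the gap to the nearest animal was 0.74 of the range of the group, above Dixon's 95% critical value for 6 samples. Chance flags about 1 in 20 groups. The same animal had the lowest KRT5 level of the 12, and its part in the TRPM7 value was not tested.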

How the results depend on the processing

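With 6 animals a group and a log2 SD within groups up to 0.80, no more than the intervals given can be said of TRPV3, TRPV4, SLC8A1 and VDR, and SLC8A1 and VDR rest on 12 to 80 reads an animal. TRPV6 and S100G lie near the limit of detection. Adjusted calls over all genes were 0 under all 12 alternatives and with each animal left out. Of 96 member fold changes under alternatives, 83 kept direction and side of the threshold, as did 7 of 9 ratios, all 14 orders of neighbours and 75 of 96 relations to the scores; where values moved, the cause was not tested unless the setting itself shows it.

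Control and treated animals of one replicate number are different buffaloes. The numbers are those of the sample descriptions; the sample titles number control replicate 6 and all treated animals otherwise, so the block rests on one of these numberings. Deviations of same-numbered animals had r from -0.0134 to 0.416, over 0.1 in 4 of 6 pairs, and 4 of 6 control and 4 of 6 treated animals correlated best with their own number, which is a hint from the data and not from the design. With the replicate number as a block, 322 genes instead of 157 had an unadjusted limma p-value below 0.05, ATP2B4 had a log2 fold change of 0.43 (SE 0.15, limma p = 0.02) and the ATP2B4 to ATP2B1 ratio differed by 0.49 (exact sign-flip p = 0.0312). It moved no other member or ratio across the threshold.

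The number of genes with an unadjusted limma p-value below 0.05 was 562 over all genes above 0, 301 over genes reaching 0.1 FPKM in 6 or more animals, 318 with the muscle and fibroblast score as covariate, 314 without both animals of lowest KRT5, and 142 to 325 with each animal left out, 325 being without treated replicate 6. Log2 fold changes that changed sign were TRPV4 at 0.03 with a pseudocount of 1 and 0.00 with voom; TRPV3 at -0.20, TRPM6 at -0.01, SLC8A1 at 0.36 and VDR at -0.38 with the muscle and fibroblast covariate; TRPV3 at -0.06, SLC8A1 at 0.18 and VDR at -0.15 with the epithelial covariate; and TRPV4 at 0.28, TRPM7 at 0.09, ATP2B1 at 0.01 and the TRPV3 to TRPV4 ratio at -0.17 without both low-KRT5 animals. All of these lay on the same side of the threshold as before.

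With each animal left out, the log2 fold changes ran from -0.12 to 0.34 for TRPV3, -0.25 to 0.30 for TRPV4, -0.08 to 0.29 for TRPM6, -0.12 to 0.01 for TRPM7, -0.11 to -0.03 for ATP2B1, 0.25 to 0.54 for ATP2B4, -0.42 to 0.14 for SLC8A1 and -0.16 to 0.29 for VDR. The ratios ran from -0.02 to 0.36 for TRPM6 to TRPM7, 0.33 to 0.59 for ATP2B4 to ATP2B1 and -0.27 to 0.27 for TRPV3 to TRPV4, and the excess of TRPV4 over ATP2B4 from 0.26 to 0.41, with an exact p-value below 0.05 without treated replicate 5 (0.0293) or treated replicate 6 (0.00684).

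For the epithelial score, r changed as follows. With summed FPKM it was -0.23 for TRPV3, 0.39 for TRPV4 and -0.37 for TRPM6. Without the 2 farthest animals it was 0.42 for TRPM7, 0.07 for ATP2B1 and 0.44 for ATP2B4. Without both low-KRT5 animals it was 0.71 for TRPV3, 0.42 for TRPM7, 0.01 for ATP2B1 and 0.62 for VDR, which no longer passed the threshold. For TRPM7 it was 0.03 after centring on each diet, and Spearman's rho was 0.27. For the muscle and fibroblast score, r was also taken without the 2 animals farthest on that score. It was -0.38 for TRPV4, 0.14 for TRPM7, -0.58 for ATP2B4, 0.46 for SLC8A1 and -0.58 for VDR. With smooth muscle genes alone it was -0.32 for TRPV4, 0.07 for TRPM7 and 0.56 for SLC8A1, and for TRPV3 it was -0.63 without both low-KRT5 animals.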
